A study of Homo sapiens with 4 samples.

Results

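Total RNA of HT1080 cells, a line grown from a human fibrosarcoma, was compared between 1% and 21% oxygen across every gene that a probe set of the array names alone. The difference was taken as the log2 value of the hypoxia array minus that of the control array. All 18417 genes with such a probe set are members, and each is represented by 1 probe set. Genes named only by probe sets that name several genes are left out. Control cells spent 36 h in 21% oxygen and hypoxia cells the same time in 1% oxygen, both with 5% CO2. Low serum (0.4%) was shared by both groups, starting 24 h or more before the oxygen was changed and lasting throughout. Each total RNA array carried RNA pooled from 5 independent experiments, and 2 further arrays of the series measured ER-RNA, the RNA recovered with a purified endoplasmic reticulum fraction. With 1 pooled array per condition there is no measure of how experiments vary and no p-value, and every value is only as precise as 1 array per condition allows. The account below passes over HIF targets, glycolysis and the cell cycle and describes the other gene families.

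When oxygen is scarce, cells stabilise the HIF transcription factors, lower their use of oxygen in mitochondria and make less protein. Ribosome assembly, tRNA charging, protein folding and proteasomal breakdown together make up the protein economy, and oxygen is also a substrate of sterol synthesis, of disulfide bond formation and of many demethylases. Total RNA holds the RNA of the nucleus, the cytosol and the membranes, so a difference in it can come from synthesis, from decay or from both.

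A gene counted as expressed where at least 1 of the 2 total RNA arrays lay above its 50% quantile, which held for 11530 genes (62.6%). Calls needed a fold change above 1.4 together with a z-score above 3, whose SD was read from a curve fitted to the same 2 arrays, so a call is a threshold on a difference and not a test. That SD is of the 2 values of a probe set and is smaller than the SD of the differences. A z-score above 3 is therefore a looser bound than 3 SD of the differences. By this rule 267 genes (2.32% of those expressed) rose and 859 (7.45%) fell, and 90.2% were not called. The counts rest on the SD: with one from the scaled MAD of differences, which is larger, 98 genes were called higher and 201 lower, with 0 rises left in cholesterol synthesis, 1 in metallothioneins and 3 falls in the proteasome. Outside the HIF target, glycolysis and cell cycle lists 222 genes rose and 792 fell. Of the 267 that rose, 43 had a control value at or below the median of its array, and of the 859 that fell, 163 had a hypoxia value at or below that median, so these genes passed the expression filter through 1 array only. The median log2 difference of the expressed genes was -0.06, with quartiles of -0.37 and 0.18, and 55.7% of them lay below 0. All values below are log2 (RMA) values, all differences are in log2 units, and no probe set's level is set against that of another. In such bulk samples fewer cells that make an RNA and less of it per cell cannot be told apart.

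In the lists passed over, 35 of 53 expressed HIF targets rose and 0 fell, and 13 of 31 glycolysis genes rose and 1 fell. Of 174 cell cycle genes 66 fell and 0 rose. These lists were written with earlier results of these data known, so they are no independent check of the treatment. The cell type was checked against its markers. Of 20 mesenchymal markers 16 were expressed, with vimentin (VIM) at 12.52 in control and 13.11 in hypoxia, while THY1, NT5E, S100A4 and TAGLN lay below the 50% quantile on both arrays. Of 15 epithelial markers 5 were expressed, KRT8 and KRT18 among them, and EPCAM and CDH1 were not. Of 11 leukocyte markers 1 was expressed and PTPRC, which marks all leukocytes, was at 4.67 and 4.65. VIM rose, SPARC fell, and no other marker of these lists was called. GAPDH read 14.01 in control and 14.13 in hypoxia, and ACTB read 13.84 and 13.40, neither of them called.

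**Figure D1:**
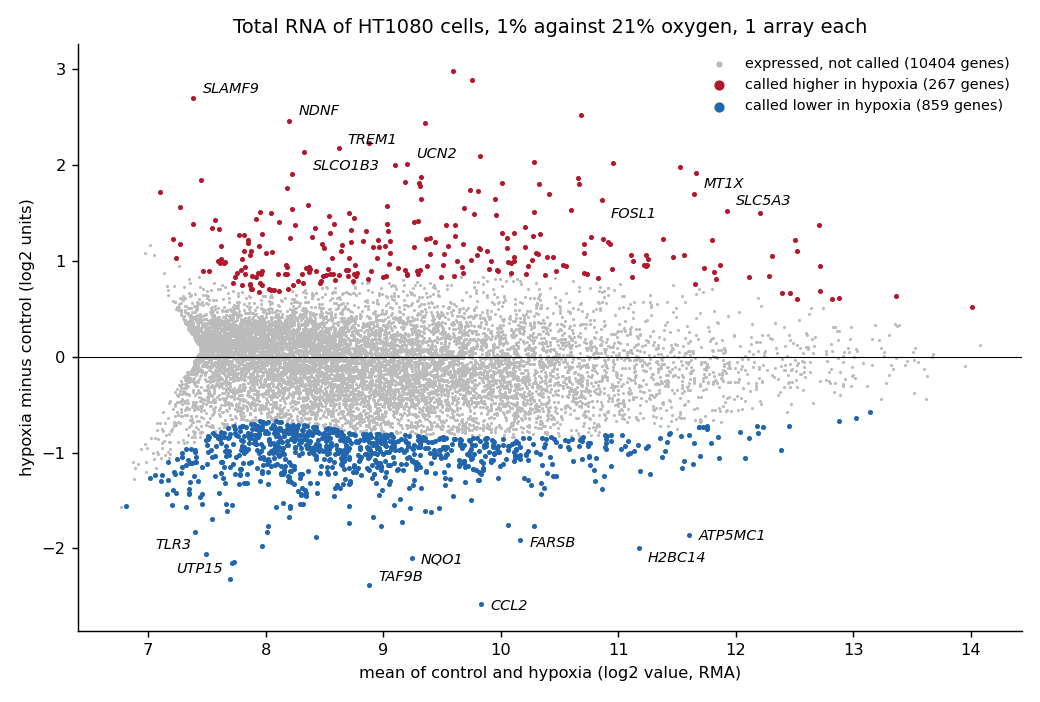
Hypoxia minus control (log2 units) against the mean of both arrays (log2 value) for the 11530 expressed genes, with genes called higher in red, genes called lower in blue and the others in grey. Falls outnumber rises (859 against 267), and genes named in the text are labelled.

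The 25 largest rises outside the HIF, glycolysis and cell cycle lists ran from 2.84-fold to 6.48-fold. SLAMF9, a receptor of the SLAM family known from immune cells, rose by 2.70 from 6.04 to 8.73. NDNF, a secreted neurotrophic factor, rose by 2.46 from 6.97 to 9.43, and TREM1, an amplifying receptor of myeloid cells, rose by 2.18 from 7.53 to 9.71. The organic anion transporter SLCO1B3 rose by 2.13 from 7.26 to 9.39 and UCN2, a peptide ligand of a corticotropin-releasing hormone receptor, by 2.01 from 8.20 to 10.21. NRN1 (neuritin, a membrane-anchored neurite growth factor), ESM1 (endocan, a secreted proteoglycan) and JAM2 (a junctional adhesion molecule) rose by 1.90, 1.84 and 1.83. Some of these rises started near the floor of the array: 8 of the 25 genes had a control value at or below the array median, SLAMF9, NDNF and ESM1 among them.

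Other large rises belonged to signalling and membrane organisation. ITGB3, the integrin β3 chain, rose by 1.73 from 8.94 to 10.67, and IPMK, an inositol phosphate kinase, rose by 1.74 from 8.87 to 10.61. SLC5A3, which imports myo-inositol with sodium, rose by 1.52 from 11.16 to 12.69, and ITPR1, a calcium release channel of the ER gated by inositol trisphosphate, rose by 1.64 from 8.51 to 10.15. LNPK, which shapes the junctions of ER tubules, rose by 1.69 from 9.57 to 11.26, SNX33, a sorting nexin of endocytosis, by 1.82 from 9.10 to 10.92, and PAG1, a membrane adaptor that recruits the kinase CSK, by 1.57 from 8.25 to 9.82. FOSL1, an AP-1 subunit, rose by 1.63 from 10.04 to 11.67, and CLK1, a kinase of splicing factors, from 7.95 to 9.46. ARFGEF3, GPR146, DIPK2A, UPK1A, GABRE, H4C8, RPSAP52 and MT1X completed the 25, with differences between 1.54 and 1.88.

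The 25 largest falls ran from 3.04-fold to 5.99-fold. CCL2, the chemokine that attracts monocytes, fell by 2.58 from 11.13 to 8.54 and had the largest fall of these genes. TAF9B, a subunit of the general transcription factor TFIID, fell by 2.38 from 10.07 to 7.69, on a probe set whose 4 values another probe set repeats. RNU5D-1, a copy of the U5 spliceosomal RNA, fell by 2.32 from 8.85 to 6.53. It belongs to a multigene family whose copies share sequence, so its value is uncertain. UTP15, which works in the assembly of the small ribosomal subunit, fell by 2.14 from 8.80 to 6.66, and FARSB, a subunit of phenylalanyl-tRNA synthetase, fell by 1.91 from 11.12 to 9.21. NQO1, a quinone reductase, fell from 10.30 to 8.19.

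Other large falls included mitochondrial proteins, receptors and enzymes. AIFM1, a mitochondrial flavoprotein, fell by 1.97 from 8.96 to 6.99, and ATP5MC1, which encodes the c-ring subunit of ATP synthase, fell by 1.86 from 12.53 to 10.67. C3AR1, the receptor for complement C3a, fell by 2.16 from 8.79 to 6.63, TLR3, the endosomal sensor of double-stranded RNA, by 2.06 from 8.52 to 6.46, and F2RL2, a protease-activated receptor, by 1.76 from 8.90 to 7.14. The death receptor TNFRSF21 fell by 1.77 from 11.17 to 9.40, the potassium channel KCNJ15 by 1.83 from 8.93 to 7.10 and the nicotinic receptor subunit CHRNA5 from 9.04 to 7.36. SKP2, the F-box protein that targets CDK inhibitors for degradation, fell by 1.72 from 10.02 to 8.30, and UBLCP1, a phosphatase of the proteasome, by 1.62 from 10.22 to 8.59. RDH10, which oxidises retinol, fell by 1.68 from 9.75 to 8.07, and PSAT1, an enzyme of serine synthesis, by 1.61 from 10.16 to 8.56. H2BC14, SLC7A2, POGLUT2, NDUFAF4, PXK, TSEN15 and IL24 completed the 25. Of these 25 genes 11 had a hypoxia value at or below the array median.

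**Figure D2:**
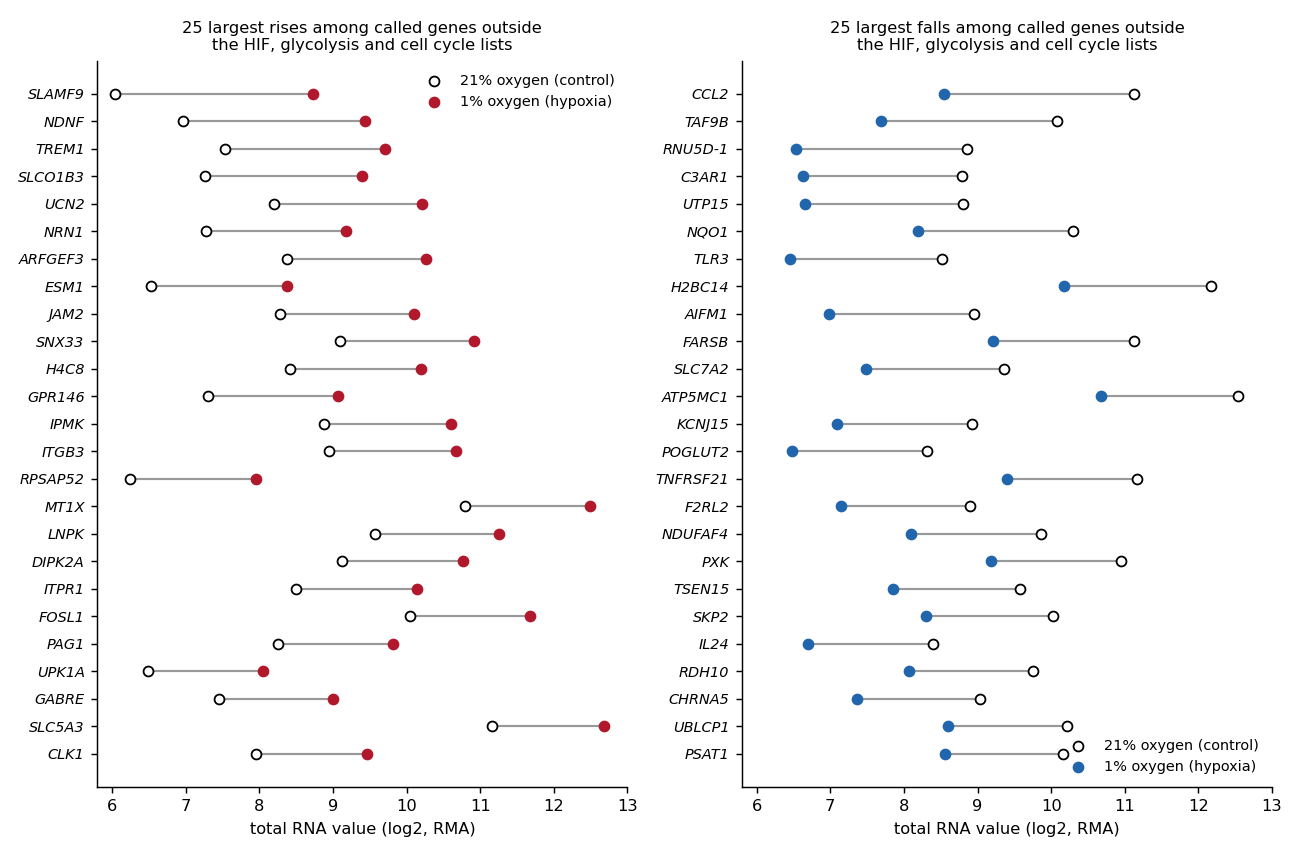
Control (open) and hypoxia (filled) log2 values of the 25 largest rises (left) and the 25 largest falls (right) among called genes outside the HIF, glycolysis and cell cycle lists. SLAMF9 heads the rises (6.04 to 8.73) and CCL2 the falls (11.13 to 8.54).

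To describe functions, 131 gene families and lists were counted beside the background of 2.32% called higher and 7.45% called lower. Each list is given by its expressed members, the number called and its median difference, to be read against the median of -0.06 over all expressed genes. Among lists with at least 20 expressed members the share of falls was highest for tRNA processing (40%), canonical histones (34.4%), the proteasome (34%), amino acid transporters (29.6%) and complex I (29.3%), and the share of rises for cholesterol synthesis (42.9%). The median was furthest below 0 among the 131 lists for tRNA processing at -0.67, and furthest above for cholesterol synthesis and uptake at 0.68. For comparison, 2 families known mainly from sensory cells and from skin and hair were counted in the same way: of 360 olfactory receptors 14 were expressed with a median of 0.09, of 95 keratin-associated and late envelope proteins 48 with a median of 0.18, and 0 of either were called. The median difference also moved with signal, from 0.09 in the lowest 20% of expressed genes by mean value to -0.15 in the highest 20%. Its part in the medians of the lists was not tested.

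**Figure D3:**
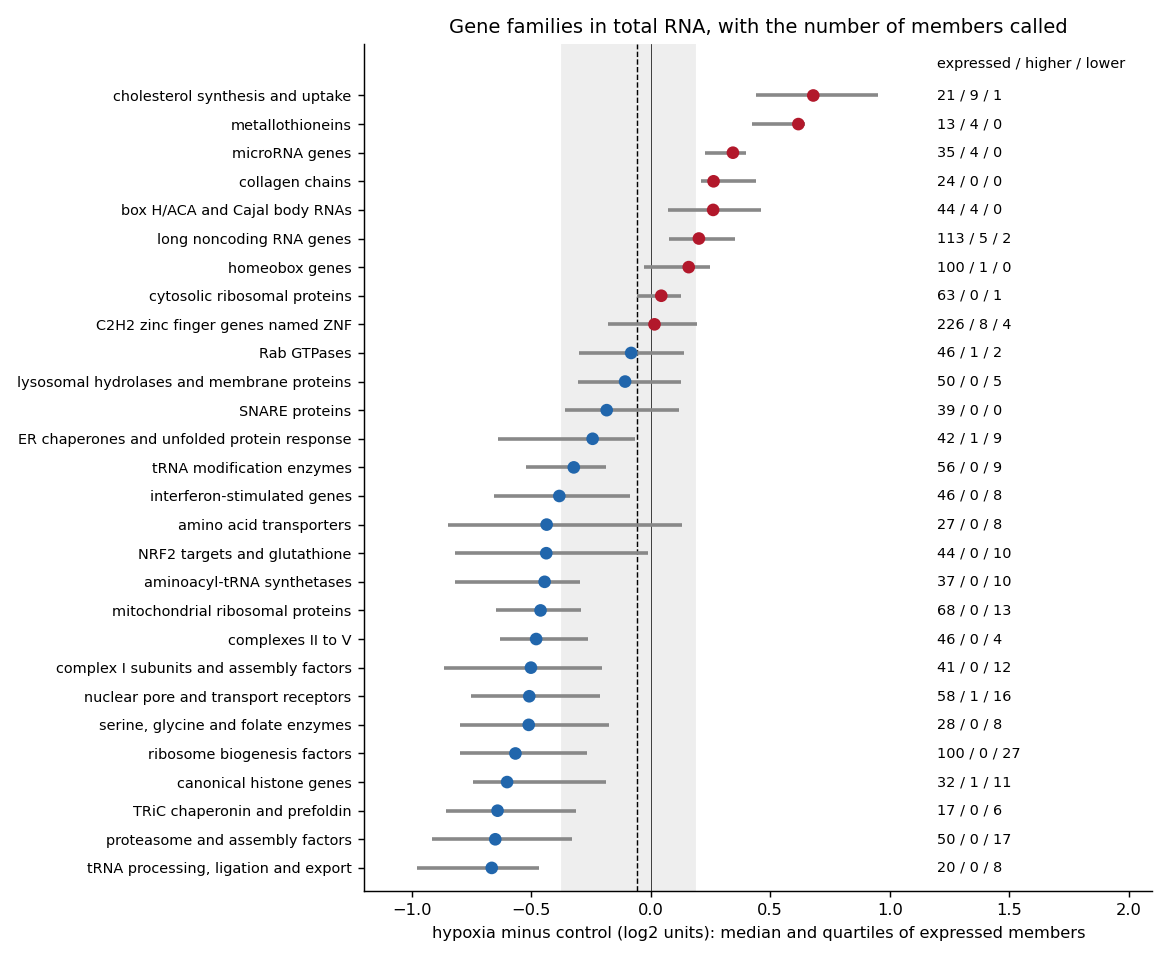
Median (point) and quartiles (bar) of the log2 difference, hypoxia minus control, over the expressed members of 28 gene families, with the number expressed, called higher and called lower at the right. The dashed line and grey band are the median and quartiles of all expressed genes. The medians run from 0.68 for cholesterol synthesis to -0.67 for tRNA processing, and those of the cytosolic ribosomal proteins and the ZNF genes change sign when both arrays are centred on their medians.

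Genes that transcribe and process stable RNA fell in larger shares than the background. In RNA polymerase I, which makes ribosomal RNA, 3 of 13 expressed genes fell and 0 rose: POLR1A by 1.23 from 9.54 to 8.31, POLR1B by 0.92 from 10.21 to 9.30 and POLR1H by 0.84 from 9.45 to 8.61. In RNA polymerase III, which makes tRNA and 5S RNA, 4 of 24 fell, led by POLR3G, which fell by 1.15 from 7.86 to 6.71. Among RNA polymerase II subunits and general factors 2 of 39 fell (5.13%, against 7.45% over all expressed genes), GTF2H3 and GTF2E1. The elongation factor ELL2 of that list rose by 1.29 from 9.37 to 10.65. The 24 expressed Mediator genes had 0 calls, with values from -0.64 for MED20 to 0.72 for MED10. Of the 15 genes of Integrator, the complex that cleaves nascent small nuclear RNAs, 12 lay below 0 and 3 fell, INTS9, INTS10 and INTS12, by 0.96, 0.89 and 0.77.

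Genes for several steps of tRNA maturation fell. Of 20 expressed genes for tRNA processing, ligation and export 8 fell and 0 rose, with 19 of 20 below 0. TSEN15, a subunit of the endonuclease that removes tRNA introns, fell by 1.73 from 9.58 to 7.85. POP1, RPP40 and RPP38, protein subunits of RNase P, which trims the 5′ end of tRNA, fell by 1.33, 1.15 and 1.08, and HSD17B10, a subunit of the mitochondrial RNase P that also degrades isoleucine, fell by 1.32 from 9.37 to 8.06. Among 56 expressed tRNA modification enzymes 9 fell and 0 rose, led by TYW1, which starts wybutosine synthesis, by 1.24 from 7.74 to 6.50, ADAT1, an adenosine deaminase of tRNA, by 1.17 from 9.71 to 8.54, and the pseudouridine synthase TRUB1 by 1.16 from 8.50 to 7.35. RPL22L1, a paralogue of a ribosomal protein, was the 1 fall among 63 expressed cytosolic ribosomal protein genes, which otherwise kept between -0.55 and 0.49. Their median of 0.04 turned to -0.03 when both arrays were centred on their medians.

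mRNA processing and decay also had more falls than rises, as did all expressed genes (7.45% against 2.32%). In the spliceosome core 8 of 54 expressed genes fell and 0 rose. GEMIN5 and DDX20, which load Sm proteins onto small nuclear RNAs, fell by 1.13 and 1.07, and SNRNP40 and SNRPG by 1.06 and 1.01. The SNRPG difference ran from -1.09 to -0.51 over the other scalings and the mean of all probe sets. Of 42 genes of the exosome and RNA decay 7 fell, EXOSC1 by 1.26 from 9.65 to 8.39 and EXOSC8 by 1.05 from 9.23 to 8.18 among them, while the poly(A) polymerase TENT4A rose by 1.04 from 9.59 to 10.63. In the cleavage and polyadenylation machinery 3 of 19 fell, CPSF2 by 0.96, CPSF3, its endonuclease, by 0.89 and CSTF2 by 0.85. The poly(A) ribonuclease PARN fell from 9.97 to 8.77 and CNOT9 by 1.01 from 10.22 to 9.21. They were the only falls among 30 deadenylase genes (6.67%, near the share over all expressed genes). In that list BTG1, an antiproliferative partner of deadenylases, rose by 0.96 from 11.39 to 12.35.

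Genes that build ribosomes and charge tRNAs fell and did not rise. Of 100 expressed ribosome biogenesis factors 27 fell, 0 rose and 93 lay below 0. Beside UTP15, LTV1 fell by 1.46 from 9.31 to 7.86, WDR12 by 1.45 from 9.07 to 7.62 and the nucleolar chaperone NOLC1 by 1.45 from 10.32 to 8.87. Of 37 aminoacyl-tRNA synthetases, which charge tRNAs, 10 fell and 0 rose, including MARS1 by 1.28 from 10.87 to 9.59 and YARS1, which fell by 1.22 to 9.78. Mitochondrial ribosomal proteins fell in 13 of 68 expressed genes, with MRPL34 by 1.30 from 9.71 to 8.41 and MRPL18 by 1.18 from 9.71 to 8.53. Initiation and elongation factors had 3 falls in 58 (5.17%), below the 7.45% over all expressed genes. EIF2B3, a subunit of the exchange factor for eIF2, fell by 1.10 from 7.72 to 6.62. ABCE1, a ribosome recycling factor, fell by 0.94 from 9.98 to 9.03.

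**Figure D4:**
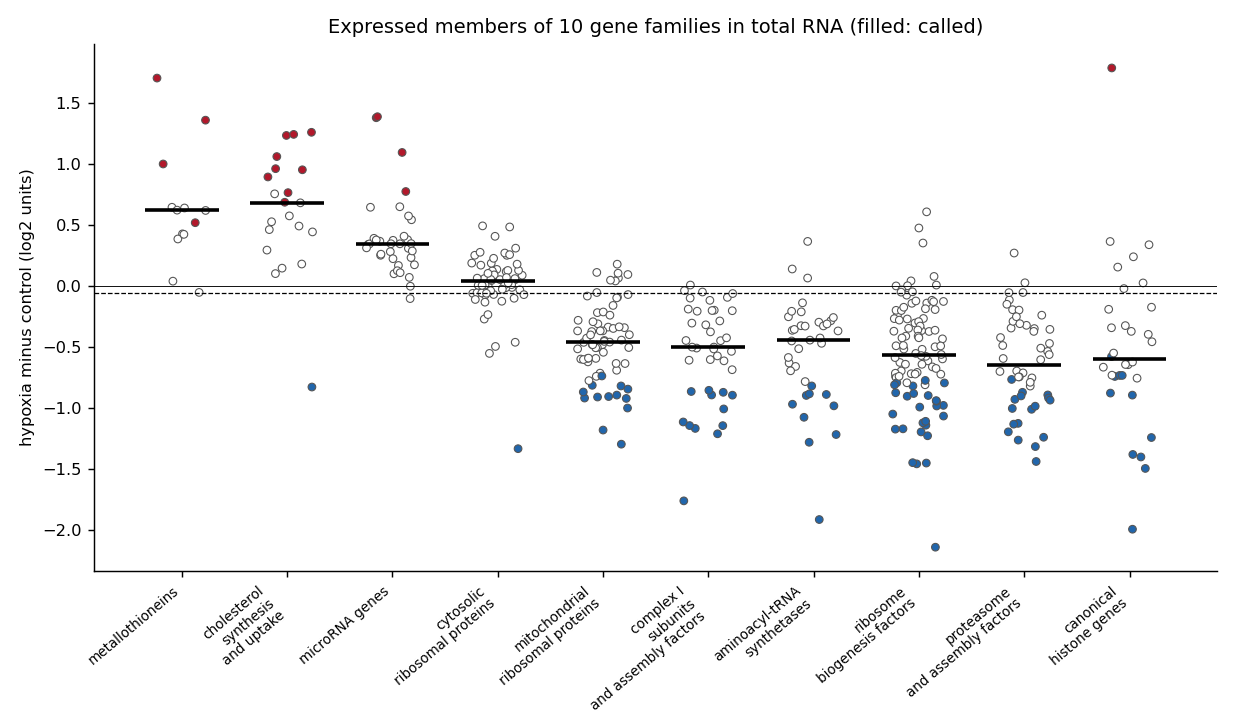
Log2 difference, hypoxia minus control, of each expressed member of 10 gene families (points, filled red where called higher and blue where called lower), with family medians as bars, 0 as the solid line and the median of all expressed genes as the dashed line. Cytosolic ribosomal proteins keep close to 0 apart from RPL22L1, while most points of the ribosome biogenesis (93 of 100) and proteasome lists lie below 0.

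In each group of mitochondrial genes described here falls outnumbered rises, as they did over all expressed genes (7.45% against 2.32%). In complex I, the first enzyme of the respiratory chain, 12 of 41 expressed genes fell and 40 of 41 lay below 0, with the assembly factor NDUFAF4 down from 9.86 to 8.10 and NDUFB10 from 10.05 to 8.83. Of 46 genes of complexes II to V 4 fell (8.70%, near the share over all expressed genes). They were ATP5MC1, TTC19 by 1.33 and BCS1L by 1.08, both assembly factors of complex III, and CYC1, cytochrome c1, by 1.01. Protein import fell in 7 of 36, including TIMM8A by 1.11 from 8.37 to 7.25, SAMM50, which inserts outer membrane proteins, by 0.99 from 10.47 to 9.48, and the matrix chaperone HSPA9 from 11.13 to 10.20. In the tricarboxylic acid cycle and its linked enzymes 5 of 22 fell and 21 lay below 0, with IDH3A by 1.06 from 10.70 to 9.63 and citrate synthase (CS) by 0.82 from 11.30 to 10.48.

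Carriers, RNA metabolism and membrane architecture of mitochondria gave further falls. SLC25A12, the aspartate-glutamate carrier, fell by 1.53 from 8.91 to 7.38, and SLC25A20, which imports acylcarnitine, by 1.24 from 8.19 to 6.95. SLC25A36, a pyrimidine nucleotide carrier, rose by 1.47 from 9.22 to 10.70 and was the 1 rise among 37 expressed carriers, of which 5 fell. PNPT1, the mitochondrial polynucleotide phosphorylase, fell by 1.30 from 8.60 to 7.31, and the elongation factor GFM1 by 0.87 from 9.07 to 8.20, 2 of 5 falls among 34 mitochondrial translation and RNA factors. Of 33 genes of dynamics and cristae 5 fell, among them AIFM1, the inner membrane protease OMA1 by 1.30 from 8.07 to 6.77 and prohibitin (PHB1) from 11.52 to 10.59. Fatty acid oxidation fell in 5 of 25 expressed genes, HADH from 8.92 to 7.98 and the peroxisomal HSD17B4 by 1.16 from 9.36 to 8.20. Peroxisome biogenesis factors gave 0 calls in 13, between -0.40 for PEX2 and 0.27 for PEX11A.

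Genes of protein folding and degradation fell as well. Of 50 expressed proteasome subunits and assembly factors 17 fell and 48 lay below 0. The falls took in the core particle, with PSMA5 by 1.26 from 8.92 to 7.66 and PSMA3 from 9.96 to 8.76, the regulatory particle, with PSMD1, which fell by 1.32 to 9.69, and the activators PSME2 from 9.69 to 8.25 and PSME3 by 1.24 from 11.50 to 10.26. In the TRiC chaperonin and prefoldin, which fold tubulin and actin, 6 of 17 fell, CCT3 from 10.42 to 9.21 and TCP1 by 1.05 from 11.89 to 10.85 among them. Of 35 cytosolic heat shock proteins 6 fell, led by HSPH1, an exchange factor of HSP70, by 1.58 from 10.27 to 8.69, the cochaperone STIP1 by 1.17 from 10.43 to 9.26 and BAG2 by 1.15 from 8.73 to 7.59. DNAJB2 rose by 0.77 from 7.93 to 8.70. In the ER 9 of 42 chaperones and unfolded protein response genes fell, including HSPA5 (BiP) by 0.97 from 12.87 to 11.90, PDIA4 by 1.05 from 10.94 to 9.90 and the stress sensor ATF6 by 0.97 from 11.38 to 10.41. The 1 rise of that list, ERO1A, is also on the HIF target list.

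The ubiquitin system outside the proteasome was counted in 4 lists. In the COP9 signalosome, neddylation and cullin list 6 of 35 fell, including SKP2, NAE1, a subunit of the enzyme that activates NEDD8, by 1.05 from 9.34 to 8.29, and CUL2, the cullin of the von Hippel-Lindau ligase, by 0.92 from 9.72 to 8.80. Ubiquitin E2 enzymes had 3 falls in 27 (11.1%) and deubiquitinases 5 in 57 (8.77%), against 7.45% over all expressed genes. F-box proteins had 1 call each way among 42, FBXO42 higher by 1.14 and FBXO32 lower by 0.99. Autophagy genes had 2 rises, WDR45B by 1.28 from 9.70 to 10.97 and ATG12 by 0.70 from 7.84 to 8.55, and 2 falls, the ATG8 proteases ATG4C by 1.31 from 8.87 to 7.56 and ATG4A from 7.96 to 7.04, among 44 expressed. Of 50 lysosomal genes 5 fell, with the palmitoyl thioesterase PPT1 by 1.37 from 11.06 to 9.68, arylsulfatase B (ARSB) by 1.07 from 9.78 to 8.71 and LAPTM4B by 1.06 from 11.34 to 10.28.

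Protein and membrane traffic was counted along its route. Falls made up 4.35% of the Rab, 5.17% of the COPI, COPII and TRAPP, 5.41% of the endosomal and 8.47% of the translocon list. These shares were near or below the 7.45% over all expressed genes. SNARE proteins had 0 calls in 39, between -0.73 for GOSR1 and 0.48 for STX11, and Rab GTPases had 1 rise, RAB20 by 1.41 from 7.41 to 8.81, and 2 falls, RAB23 and RAB31, in 46. In COPI, COPII and TRAPP 3 of 58 fell, including SAR1B, the GTPase that starts COPII coats, by 1.23 from 9.43 to 8.19. Translocon and glycosylation genes fell in 5 of 59, with the mannosyltransferase ALG3 by 1.06 from 12.61 to 11.55 and the signal recognition particle receptor SRPRA by 0.83 from 11.95 to 11.12. Among 74 endosomal sorting genes SNX33 rose and 4 fell, VPS52 by 1.02 from 10.64 to 9.61 first. The proton pump fell in 3 of 21 expressed subunits, ATP6V1A by 1.04, ATP6V0A1 by 1.02 and ATP6V0D1 by 0.90. At the nuclear pore 16 of 58 nucleoporins and transport receptors fell and 55 lay below 0, with NUP37 by 1.13 from 8.54 to 7.41, NUP88 from 10.99 to 9.88 and NUP93 by 1.10 from 9.81 to 8.71, while NUP58 rose by 0.90 from 8.86 to 9.76. KPNA2, the largest fall of that list at 1.17 lower, is also on the cell cycle list.

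Chromatin and DNA repair genes were counted as histones and as enzymes and complexes. Of 32 expressed canonical histone genes, which are transcribed in S phase, 11 fell, H2BC14 from 12.17 to 10.18 and H2BC3 from 8.98 to 7.57 among them. H4C8 rose by 1.78 from 8.42 to 10.20. Histone genes are near-identical in sequence, so single members are uncertain. Among histones made outside S phase H2AZ1 fell by 1.18 from 11.39 to 10.20 and H2AX by 1.00 from 9.54 to 8.54, in 7 expressed. Base and nucleotide excision repair fell in 7 of 31, with PARP1 by 1.37 from 10.00 to 8.64, ERCC4 by 1.00 from 8.75 to 7.75 and the uracil glycosylase UNG by 0.98 from 8.30 to 7.32. Remodelling complexes had 3 falls in 50 (6%, against 7.45% over all expressed genes), HELLS by 1.28, RUVBL1 by 1.26 and ACTL6A by 0.95. Oxygen-using demethylases rose in 4 of 40 and fell in 1: outside the HIF target list KDM7A rose by 1.09 from 7.46 to 8.54 and TET1 by 0.94 from 7.35 to 8.29, and KDM4A fell from 9.49 to 8.55. Acetyltransferases and deacetylases had 1 call each way in 47, KAT6B higher by 0.92 and HAT1 lower by 0.90, and lysine methyltransferases 2 falls in 47, RBBP5 and EZH2.

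Cholesterol synthesis and uptake was the list with the largest share of rises outside the themes passed over. Values were read for 21 of its 27 genes, all expressed, and the other 6 are not analysed here. Of the 21, 9 rose, 1 fell and 20 lay above 0, with a median of 0.68 that stayed between 0.60 and 0.72 under the other scalings. In ER-RNA, on its own scale, 0 of these genes were called and their median was 0.44. The rises ran along the pathway. ACAT2, at its first step, rose by 0.95 from 9.75 to 10.70, MVD, which makes isopentenyl diphosphate, by 1.26 from 9.64 to 10.90, and SQLE, the oxygen-using squalene epoxidase, by 0.76 from 11.27 to 12.03. LSS, which closes the sterol rings, rose by 1.23 from 10.26 to 11.49. CYP51A1, the oxygen-using lanosterol demethylase, rose by 1.06 from 11.03 to 12.09, the sterol isomerase EBP by 0.89 from 10.03 to 10.92 and DHCR7, the last step, by 0.68 from 12.37 to 13.06. INSIG1, which holds the sterol sensor in the ER, rose by 0.96 from 10.74 to 11.70, and the sterol carrier STARD4 by 1.24 from 9.43 to 10.67. SCAP, the sensor itself, fell by 0.83 from 9.63 to 8.80. Fatty acid synthesis had 1 call each way: ACSS2, which makes acetyl-CoA from acetate, rose by 1.08 from 10.17 to 11.25 and ELOVL6 fell by 1.09 from 9.21 to 8.12 in 20 expressed genes, with a median of -0.23.

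The start regions of the cholesterol genes shared a short motif. In the RefSeq promoters of build GRCh38.p14, which span 250 bases before to 50 bases after a gene's start, CCAAT (read on either strand, as CCAAT or ATTGG) was found in 14 of the 19 promoters held for the 21 measured cholesterol genes (73.7%), against 35.7% of all 27305 promoters. The cholesterol promoters were also richer in GC, with a median of 67.7% against 58.3%. A match is shown for 6 called genes, to let its surroundings be compared, with the motif in capitals and the gene's strand read 5′ to 3′. MVD lies at chr16:88663159-88663188 on the minus strand, STARD4 at chr5:111512648-111512677 (minus), INSIG1 at chr7:155297696-155297725 (plus), LSS at chr21:46228907-46228936 (minus), EBP at chrX:48521766-48521795 (plus) and DHCR7 at chr11:71448424-71448453 (minus).
MVD: ggctcgcacgggCCAATcctgtggtagcgc
STARD4: ctcccgcgccagCCAATccgaacaagcgca
INSIG1: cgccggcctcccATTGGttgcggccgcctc
LSS: cgcggcgctctgATTGGttgcgtgggcgtc
EBP: cttcgcttcaccATTGGctcgctccgtaag
DHCR7: ggtccgcctccgATTGGcaggcaatcgctg
The motif lies 85, 130, 170, 150, 30 and 48 bases before the start in this order. No match was found in the promoter of CYP51A1, which says only that these letters are not in that window. A match is a description of sequence and not a binding site.

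Metallothioneins, small cysteine-rich proteins that bind zinc and copper, rose beside the sterol genes. Of 13 expressed genes 4 rose and 0 fell: MT1X by 1.70 from 10.80 to 12.50, MT1F by 1.36 from 9.52 to 10.88, MT1E by 1.00 from 9.41 to 10.41 and MT2A by 0.52 from 13.75 to 14.27. The members are near-identical, so the values of single genes and pseudogenes are uncertain. Of 14 measured metallothioneins 5 have a promoter in the table, too few to count motifs over the family. Windows of 30 bases from the promoters of the called MT1X (chr16:56682308-56682337, plus strand) and MT2A (chr16:56608426-56608455, plus strand) are shown with the core of the metal response element, TGCNCNC, in capitals.
MT1X: caggccccgcggTGCGCCCggcgctgggct
MT2A: ccgggTGCGCCCggcccagTGCGCGCggcc
The core occurred 4 times in the whole MT1X promoter and 8 times in that of MT2A, on either strand, and 55.2% of all promoters held it at least once. Zinc transporters had 1 call in 19, SLC30A3, which rose by 0.84 from 8.35 to 9.19.

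**Figure D5:**
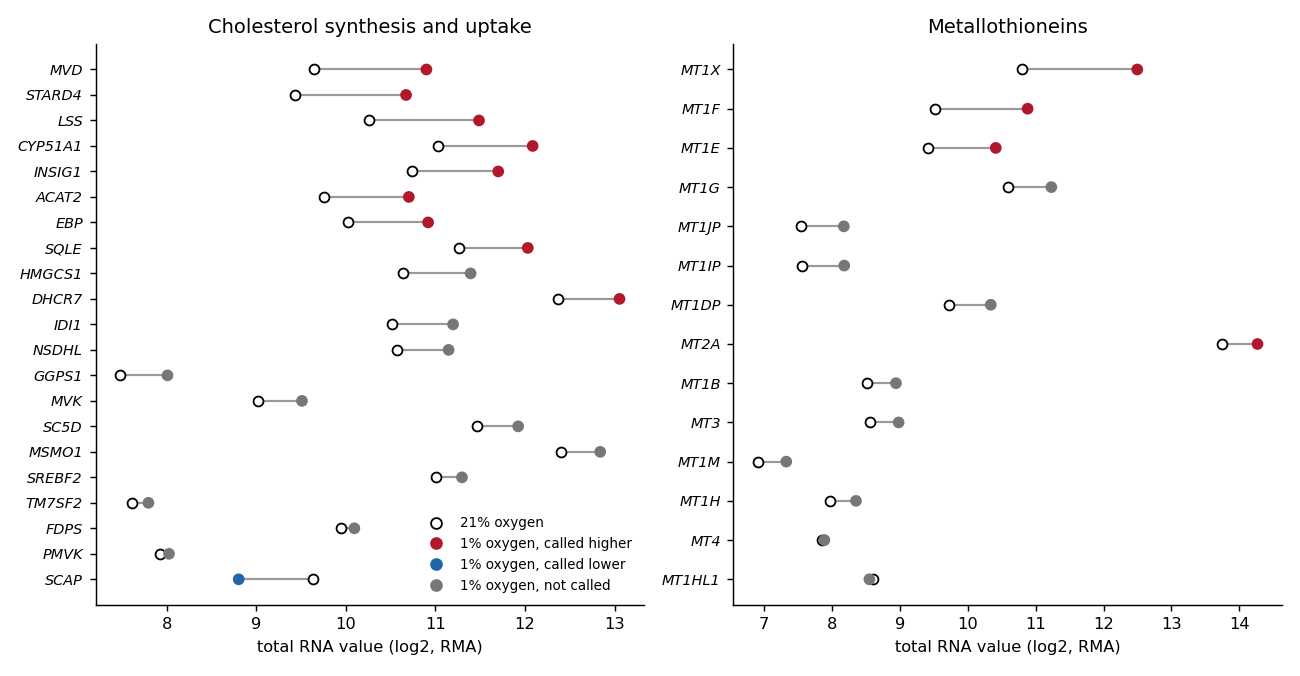
Control (open) and hypoxia (filled) log2 values of the 21 measured genes of cholesterol synthesis and uptake (left) and the 14 measured metallothioneins (right), ordered by their difference; red and blue mark genes called higher and lower, grey genes not called. In the sterol panel all genes but SCAP lie to the right in hypoxia.

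Genes of amino acid, nucleotide and redox metabolism fell, and some of them are shared between lists. Of 38 expressed targets of the integrated stress response, the pathway that answers amino acid shortage through ATF4, 11 fell, including SLC7A11, the cystine importer, by 1.55 from 9.87 to 8.32, CHAC1, which degrades glutathione, by 1.39 from 9.69 to 8.29, and asparagine synthetase (ASNS) by 1.07 from 9.03 to 7.96. The 2 rises, VLDLR and STC2, are also on the HIF target list. SLC7A11 and CHAC1 also count among the 10 falls in 44 NRF2 targets and glutathione genes, beside NQO1, GPX8 by 1.32 from 9.03 to 7.71 and TALDO1, of the pentose phosphate pathway, from 10.22 to 9.10. Serine, glycine and folate enzymes fell in 8 of 28, with PSAT1, MTHFD1 by 1.27 from 9.31 to 8.04 and the mitochondrial MTHFD2 by 1.02 from 10.72 to 9.71.

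Nucleotide synthesis fell in 8 of 47. CTPS1, which makes CTP, fell by 1.56 from 9.49 to 7.93, UMPS, the last step to UMP, by 1.07 from 9.09 to 8.02, and SAMHD1, which degrades deoxynucleotides, by 1.56 from 8.87 to 7.31. In polyamine and glutamine metabolism ODC1, the first enzyme of polyamine synthesis, fell by 1.09 from 11.16 to 10.08 and GOT1 from 10.93 to 9.59, and ARG2, the mitochondrial arginase, rose by 1.01 from 9.24 to 10.26. Amino acid transporters fell in 8 of 27, SLC7A2 from 9.37 to 7.48, SLC1A5, a glutamine importer, by 1.03 from 10.73 to 9.70 and SLC7A5, a leucine importer, by 0.97 from 11.51 to 10.54. The SLC1A5 difference ran from -1.10 to -0.54 over the other scalings and the mean of all probe sets, so its size is uncertain. Catabolism of branched-chain amino acids fell in 5 of 24, among them ACAT1 by 1.25 from 8.81 to 7.57 and PCCB by 0.89 from 9.63 to 8.75. Of 31 iron handling genes 3 of heme and iron-sulfur synthesis fell, FECH, which inserts iron to complete heme, by 1.05, UROS by 1.01 and ISCU by 0.97.

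Transcription factors were called as single genes. Of 226 expressed ZNF genes 8 rose and 4 fell, with ZNF33A by 1.19 from 7.26 to 8.45 and ZNF292 by 1.14 from 9.48 to 10.62 the largest rises, and ZNF174 the largest fall by 1.10 from 8.16 to 7.07. ZNF33A and ZNF33B, which also rose, are close paralogues and their values may not be independent. Of 100 homeobox and related genes TBX3, a T-box repressor, rose by 0.96 from 10.05 to 11.01 and was the 1 call, with 74 above 0. Among 38 bZIP factors FOSL1, BACH1, a heme-binding repressor of antioxidant genes, by 1.16 from 8.97 to 10.13, and NFIL3 by 0.95 from 9.03 to 9.98 rose, and ATF6 and CREB3L2 fell. Nuclear receptors had 3 rises and 2 falls in 23. RARB rose by 0.77 from 7.57 to 8.33 while RARG fell by 1.13 from 8.78 to 7.65, both retinoic acid receptors, and NR4A2 rose by 0.84 from 9.18 to 10.03 and VDR fell by 0.89 from 9.46 to 8.57. RORA, the other rise, is also on the HIF target list. Among 93 forkhead, GATA, KLF, SOX and ETS factors KLF5, FOXN3 and KLF11 rose by 1.08, 0.88 and 0.86, and ETV5 fell by 0.87. FOXM1, the other fall, is also on the cell cycle list.

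Inflammatory and interferon genes showed falls of single ligands and of sensors. Of 28 expressed chemokines and interleukins 6 fell, led by CCL2, IL24 by 1.70 from 8.39 to 6.70 and IL1A by 1.14 from 9.55 to 8.41, and 3 rose: IL36B by 1.35 from 6.87 to 8.22, TNFSF13B by 1.17 from 6.68 to 7.86 and CXCL8 by 0.84 from 8.07 to 8.90. IL36B and TNFSF13B had control values below the array median. Interferon-stimulated genes fell in 8 of 46 and rose in 0, with TLR3, the peptide transporter TAP2 by 1.21 from 9.63 to 8.42, GBP2 from 7.82 to 6.62 and IRF1 by 1.14 from 9.04 to 7.91. Complement and coagulation fell in 5 of 23, with C3AR1, F2RL2 and the plasminogen activator PLAU by 0.90 from 12.24 to 11.33, and SERPINE2, an inhibitor of such proteases, rose by 0.81 from 11.42 to 12.24. In the NF-κB pathway the inhibitor TNFAIP3 rose by 0.80 from 8.19 to 8.99 and CHUK, a kinase of IκB, fell from 8.56 to 7.37, in 35 expressed. Among 66 expressed immune receptors and other surface genes 4 rose (6.06%), SLAMF9, TREM1, ALCAM and CD109, and 6 fell (9.09%). That share of falls was near the 7.45% of all expressed genes. The 3 butyrophilins BTN3A2, BTN3A3 and BTN3A1 fell by 1.54, 1.25 and 1.11 and CD22 by 1.54. The BTN3A genes are close paralogues and share sequence, so they are not independent values.

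In growth factor and guidance pathways ligands, receptors and signal carriers were called in both directions. The TGF-β superfamily had 2 rises and 5 falls in 57. BMP4 fell by 1.25 from 8.02 to 6.77, its antagonist NOG by 1.09 from 10.66 to 9.57 and SMAD1, which carries the BMP signal, by 1.11 from 9.96 to 8.85, while SMAD9 rose by 1.24 from 7.58 to 8.82. TGFBR3, a coreceptor, fell by 1.30 from 9.37 to 8.07. In the WNT pathway 2 of 52 fell (3.85%, against 7.45% over all expressed genes), LRP5 by 0.96 and LEF1 by 0.86. In the Notch pathway RBPJ, its DNA-binding factor, rose by 1.04 from 9.92 to 10.96 and POGLUT1 fell by 0.78. Semaphorins, plexins and ephrins had 4 rises in 51, EFNA3 by 1.03 from 8.43 to 9.46, PLXNA3 by 0.90, SEMA4B by 0.89 and SEMA5A by 0.87, and PLXNA1 fell by 1.22 from 11.88 to 10.66. Dual-specificity phosphatases, SPRY and SPRED had 0 calls in 25, with SPRY4 at 9.38 and 10.17. Of 37 apoptosis regulators 5 fell, AIFM1, BCL2L11 by 1.10, BAK1 by 0.95, DFFA by 0.86 and CASP8 by 0.84, and BLID rose by 1.22 from 8.35 to 9.57. ARRDC3 and BTG1 rose by 1.17 and 0.96 among growth-arrest genes. The kinase MTOR fell by 1.10 from 9.83 to 8.73 and PRKAA2, a catalytic subunit of AMPK, rose by 1.16 from 8.07 to 9.23, the 2 calls in 40 genes of growth control.

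Matrix and cytoskeleton genes followed. Collagen chains had 0 calls in 24 expressed, although 23 lay above 0, between -0.34 for COL4A1 and 0.72 for COL5A1. Laminins and integrins had 1 call in 33, the rise of ITGB3. Matricellular proteins fell in 4 of 37, CCN3 by 0.99, SPP1 (osteopontin) by 0.91, EFEMP1 by 0.72 and SPARC by 0.64 from 13.34 to 12.70. Proteoglycans and their synthesis had 5 falls in 52 (9.62%, near the 7.45% over all expressed genes), with a median of -0.05. In 3 genes of heparan and chondroitin sulfate synthesis, EXTL2 fell by 1.57 from 8.11 to 6.54, CHSY3 by 1.22 from 7.89 to 6.67 and UST by 1.01 from 8.87 to 7.87. EXTL2 and CHSY3 had hypoxia values below the array median. Of 50 GalNAc, sialyl- and fucosyltransferase and related genes B4GALT5, GALNT6 and ST8SIA1 fell, the last 2 of them by 1.02 and 0.98. The ST8SIA1 difference ran from -1.06 to -0.52 over the other scalings and the mean of all probe sets. Metalloproteinases had 2 falls in 36, ADAM19 and ADAM23, by 0.99 and 0.78. Actin-binding genes had 3 falls, PLS1, ENAH and LCP1, and 1 rise, TMSB10 by 0.66 from 12.06 to 12.72, in 61, and myosins and dyneins had 0 calls in 46.

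Channels and transporters changed as single genes. Solute carriers other than those for amino acids had 5 rises and 3 falls in 97. Beside SLCO1B3 and SLC5A3, SLC44A5 rose by 1.15 from 7.37 to 8.52 and SLC26A6, an anion exchanger, by 1.14 from 9.25 to 10.39, while the sulfate transporter SLC26A2 fell by 1.61 from 8.48 to 6.87 and SLC10A7 by 1.32 from 8.50 to 7.18. ABC transporters fell in 5 of 20, including ABCA1, which exports cholesterol, by 1.06 from 9.74 to 8.68, and ABCB6 rose by 0.79 from 8.07 to 8.86. Potassium channels had 1 call in 33, the fall of KCNJ15, and aquaporins, connexins and pannexins 0 in 14. Sodium, calcium and chloride channels fell in CLCN3 and ASIC1, both by 0.97, of 49 expressed. G protein-coupled receptors had 4 rises and 8 falls in 90: GPRC5A rose by 1.23 from 10.76 to 11.99 and GPR155 by 1.17 from 7.89 to 9.07, and the serotonin receptor HTR1D fell by 1.18 from 10.44 to 9.26 and the adhesion receptor ADGRG1 by 1.02 from 9.77 to 8.76.

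Noncoding RNA genes had more rises than falls in several classes. Among 185 expressed genes annotated as long noncoding RNA 8 rose (4.32%) and 3 fell (1.62%), with a median of 0.18, against 243 rises (2.21%) and 844 falls (7.68%) among 10988 protein-coding genes with a median of -0.07. MIR31HG rose by 1.31 from 8.38 to 9.69, LINC00310 by 1.42 from 6.86 to 8.28 and the nuclear RNA MALAT1 by 0.84 from 11.86 to 12.71. H/ACA RNAs, which guide pseudouridylation, were counted together with the Cajal body RNAs, and that list was not split by kind of guide. It had 4 rises in 44 expressed, SCARNA4 by 1.49 from 7.30 to 8.79 first. Box C/D RNAs outside that list, which guide methylation and are mostly cut from introns, had 6 falls in 53. The largest was SNORD78 by 1.55 from 8.49 to 6.94. The keratin-associated and late envelope genes also had a median of 0.18. LINC00310 and SCARNA4 had control values below the array median and SNORD78 a hypoxia value below it, so each passed the filter through 1 array only.

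Of 173 microRNA genes measured 35 were expressed, 4 rose, 0 fell and 33 lay above 0. MIRLET7A2 rose by 1.39 from 8.34 to 9.72, MIR221 by 1.38 from 7.56 to 8.93, MIR21 by 1.09 to 8.60 and MIR196A1 by 0.77 from 7.33 to 8.11. In ER-RNA, on its own scale, the same probe sets differed by -0.12, 0.41, -0.29 and -0.26, and 0 of them were called there. MIR196A1 had a total RNA control value below the array median, so it passed the filter through the hypoxia array only. The array's probes read long cDNA, so these values belong to hairpins, primary or host transcripts and not to the mature microRNAs. The mature sequences held in RefSeq (GRCh38.p14) are shown with the seed, bases 2 to 8, in capitals, because the seed decides which mRNAs a microRNA can pair with.
let-7a-5p: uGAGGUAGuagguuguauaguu
let-7a-2-3p: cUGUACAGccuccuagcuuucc
miR-221-3p: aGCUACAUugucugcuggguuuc
miR-21-5p: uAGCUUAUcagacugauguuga
miR-196a-5p: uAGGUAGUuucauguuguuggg
miR-196a-1-3p: cAACAACAuuaaaccacccga
They lie at chr11:122146568-122146589 and chr11:122146523-122146544 (minus strand), chrX:45746180-45746202 (minus), chr17:59841273-59841294 (plus), chr17:48632532-48632553 and chr17:48632495-48632515 (minus), in this order. None of the 6 seeds is shared with another.

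Beyond function, called genes were compared by length, chromosome and promoter. The median gene length was 34.96 kb for genes that rose and 32.3 kb for genes that fell, against 26.5 kb over expressed genes. The share that fell was 4.60%, 7.16%, 8.59%, 10.1% and 6.85% in 5 bins of near-equal size from the shortest to the longest genes, so it was highest in the fourth and lower again in the last. On chromosome 19, 0.943% of 848 expressed genes rose and 2.12% fell. Chromosome 6 had the largest share of falls among chromosomes with over 100 expressed genes, 12.4% of 563, followed by chromosome 18 with 11.8% of 161. CCAAT stood in 45.9% of the 714 promoters held for the 859 genes that fell, against 35.7% of all promoters, and ACGTG, the core that HIF binds and that also lies inside the E-box CACGTG, in 47.7% of the 86 promoters of ribosome biogenesis factors against 21.6% of all. Both sets of promoters had a median GC content of 63%, against 58.3% over all promoters. The same counts over the genes that rose and over all expressed genes are void, since under 80% of them have a promoter in the table.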

How the data were processed

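The authors hybridised cDNA made by random priming to Affymetrix Human Gene 1.0 ST arrays and deposited log2 values after RMA. The submitters' processing notes name Partek 6.4. The table holds 33297 probe sets, of which 19460 name 1 gene, 1754 several and 12083 none in the platform annotation, and symbols were updated through RefSeq gene identifiers for 19429. Each gene was represented by its brightest probe set, by the mean of the 4 arrays. Calls used the thresholds of the methods for fold (over 1.4) and z-score (over 3). Keeping a gene where at least 1 array exceeded its 50% quantile is a choice made here, since the methods name only the quantile. The SD came from 1 loess curve (span 0.75, degree 2, R 4.3.3) fitted to the pair. This departs from the methods, which fitted treatment and control on their own, because 1 array per condition has no SD of its own. No test is possible with 1 array per condition, and a p-value is not given. The call script was tested on simulated data. Gene lists, named genes and comparisons were chosen with earlier results of these data known. Named genes are, per list, up to 4 called members with the highest and 4 with the lowest differences (where none is called, the highest and lowest expressed member), the 25 largest rises and falls outside the HIF, glycolysis and cell cycle lists, GAPDH and ACTB, and the promoter examples. Genes named outside this rule were chosen after their values were seen. The 11 alternatives covered scaling (with limma 3.58.1), expression filter, SD model, thresholds and probe set per gene. Motif counts and tables used Python with pandas.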

Additional observations from a re-analysis of the deposited data

Results flagged for a closer look

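SNORD116-23, a box C/D small nucleolar RNA from a cluster of near-identical copies, differed between the fractions in sign. It fell in total RNA by 0.72 from 8.56 to 7.84 and stood 0.61 higher in hypoxia in ER-RNA. That difference between the fractions was not tested, since each fraction has 1 array per condition.

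Probe sets without a gene name in the annotation lie outside all counts of genes above. Of 4232 such probe sets that were expressed, 229 were called higher and 177 lower in hypoxia by the same rule, so here rises outnumber falls. Their transcripts are not named here.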

How the results depend on the processing

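Medians of all expressed genes moved from -0.06 to -0.13 when both arrays were centred on their medians, to -0.01 under quantile normalization and to -0.04 under a loess curve fitted within the pair. The rises were 23.7% of all calls in the report, 16.6% after median centring and 30.1% after quantile normalization. Genes called higher, 267 in the report, numbered 477 without the expression filter, 156 with at least 1 array above the 75% quantile, 98 where the SD came from a scaled MAD (20 bins of signal), 715 by fold change alone and 149 at a fold threshold of 2. Genes called lower, 859 in the report, numbered 370, 201, 2144 and 380 under the last 4 of these settings.
Over all described lists together 112 members were called higher and 434 lower. Those called higher numbered 220 without the filter, 72 at the 75% quantile, 35 with the MAD, 296 by fold change alone and 64 at a fold of 2, and those called lower 216, 97, 1025 and 196 under the last 4 settings. At the 75% quantile the falls numbered 10 for the proteasome, 8 for ribosome biogenesis, 10 for the nuclear pore and 7 for mitochondrial ribosomal proteins. With the MAD, an SD of differences that is larger by construction, the falls numbered 3 for the proteasome, 11 for ribosome biogenesis, 1 for the nuclear pore, 2 for complex I, 0 for mitochondrial ribosomal proteins and 1 for aminoacyl-tRNA synthetases, and the rises 0 for cholesterol synthesis and 1 for metallothioneins. By fold change alone these 8 lists gave 31, 58, 31, 22, 30, 16, 14 and 8 calls, and at a fold of 2 they gave 9, 13, 8, 7, 3, 4, 4 and 2, in the same order. Mitochondrial ribosomal proteins had 7 falls after quantile normalization and 8 after the loess curve. Of 412 called genes named by the rule 58 were called under all 11 alternatives and 0 changed direction. Of 131 list medians 24 changed sign under some scaling or probe set choice, all with a median within 0.10 of 0. No paired analysis was possible because each condition has 1 array per RNA fraction. Pooling 5 experiments on 1 array hides the spread between them, and dim probe sets near the array median are the least certain.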
